A study of Mus musculus with 24 samples.

Results

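The adaptors and kinases that carry Toll-like receptor (TLR) signals inside the cell were examined as a set of 10 genes, namely Myd88, Tirap, Ticam1, Irak1, Irak2, Irak3, Irak4, Traf6, Tbk1 and Ikbke. They were chosen by name from the array's own gene symbols, with earlier results of these data known. They are 10 of 21597 symbols on the array, read by 20 of 41174 probes. All 10 passed the filter on dim signal, and the probe that stood for each gene was well above background in 24 of 24 channels. The study asked how macrophages and B cells of C57BL/6 mice respond to Kdo2 lipid A (KLA), the lipid A part of endotoxin and a selective agonist of TLR4. Each condition was measured on 1 Agilent 2-colour array that carried 2 biological replicates, replicate 1 in Cy5 and replicate 2 in Cy3, which gave 12 conditions on 12 arrays.

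Elicited peritoneal macrophages (EPM) came from mice injected with thioglycollate and were the cells that adhered after overnight culture. They were untreated, treated with KLA for 1 h, treated with DMSO for 12 h or treated with KLA for 12 h. Bone marrow-derived macrophages (BMDM) were grown from marrow for 6 to 8 days in a source of M-CSF and had DMSO for 1 h, KLA for 1 h, DMSO for 12 h or KLA for 12 h. B cells were resting splenic cells left after depletion of cells bearing CD43 or CD11b, and had the same 4 treatments as EPM. The control at 1 h was therefore untreated cells for EPM and B cells but DMSO for BMDM, so that this difference in control cannot be told apart from the difference in cell type at 1 h. The labels give no genetic change in any group and no dose of KLA. Since both replicates of a condition shared an array, array-to-array differences are missing from their spread, and p-values measure only the spread between channels.

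TLR4 engages a pair of adaptor arms. In the MyD88 arm, TIRAP brings MyD88 to the receptor at the plasma membrane, IRAK4 and then IRAK1 and IRAK2 are assembled on MyD88, and the ubiquitin ligase TRAF6 passes the signal to TAK1 and the canonical IKK complex, which activates NF-kappaB. In the TRIF arm, used from endosomes, the adaptor encoded by Ticam1 recruits TRAF3 and the IKK-related kinases TBK1 and IKK-epsilon (encoded by Ikbke), which phosphorylate IRF3 and lead to type I interferon. IRAK3, also called IRAK-M, is a family member known in macrophages as an inhibitor of the pathway.

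The adaptor gene Myd88, the inhibitor Irak3 and the kinase gene Ikbke changed by at least 2-fold in both macrophage types at 12 h, and their promoters are shown to place these changes beside the sequence upstream of each gene. All 10 genes matched the RefSeq promoter table (assembly GRCm38.p6), which holds 13 promoters for them, each running from 250 bases before to 50 bases after the start of transcription. Irak3 has a pair of annotated starts. Letters in capitals mark matches to 4 motifs searched on both strands, GGNNTTTCC for NF-kappaB, TTCNNTTTC for IRF, TGANTCA for AP-1 and TATAAA for the TATA box, and each sequence is given 5′ to 3′ along the strand of the gene.
Myd88, chr9:119339969-119340268, minus strand: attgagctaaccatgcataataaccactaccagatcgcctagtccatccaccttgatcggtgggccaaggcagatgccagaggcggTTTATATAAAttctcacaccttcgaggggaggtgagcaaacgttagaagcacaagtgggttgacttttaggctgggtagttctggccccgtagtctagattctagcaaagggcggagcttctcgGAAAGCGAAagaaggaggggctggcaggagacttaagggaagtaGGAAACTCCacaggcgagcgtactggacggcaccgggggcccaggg
Irak3, downstream start, chr10:120201548-120201847, minus strand: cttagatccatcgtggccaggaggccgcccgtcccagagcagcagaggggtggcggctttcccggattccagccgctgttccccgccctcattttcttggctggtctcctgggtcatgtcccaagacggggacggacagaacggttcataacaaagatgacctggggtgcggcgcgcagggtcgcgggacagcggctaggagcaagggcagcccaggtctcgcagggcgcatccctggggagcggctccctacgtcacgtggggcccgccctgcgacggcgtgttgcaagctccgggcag
Irak3, upstream start, chr10:120202081-120202380, minus strand: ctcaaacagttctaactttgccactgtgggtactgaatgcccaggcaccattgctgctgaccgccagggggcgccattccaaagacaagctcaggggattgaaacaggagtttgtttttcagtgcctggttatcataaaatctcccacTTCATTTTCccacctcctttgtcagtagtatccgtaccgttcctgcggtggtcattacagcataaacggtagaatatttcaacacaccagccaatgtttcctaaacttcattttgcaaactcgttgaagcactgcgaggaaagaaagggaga
Ikbke, chr1:131279514-131279813, minus strand: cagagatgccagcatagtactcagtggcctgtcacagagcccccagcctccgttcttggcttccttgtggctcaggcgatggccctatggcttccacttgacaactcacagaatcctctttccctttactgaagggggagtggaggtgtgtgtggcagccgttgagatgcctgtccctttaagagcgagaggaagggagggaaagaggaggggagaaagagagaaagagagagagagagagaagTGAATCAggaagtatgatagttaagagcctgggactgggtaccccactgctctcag

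The Myd88 window held an NF-kappaB match at 5 to 13 bases after the start and an IRF match at -40 to -32, both read on the opposite strand, as well as overlapping TATA matches on both strands between -164 and -155. Over all promoters of the table, TATA letters on the strand of the gene started most often at -29, well downstream of these matches. The window at the downstream Irak3 start held no match, and that at the upstream start held an IRF match at -102 to -94. The Ikbke window held an AP-1 match that spanned the start, from -6 to 1. The other 7 members had no match to any of the 4 motifs in their windows. Over all 32851 promoters of the table, 5.82% held the NF-kappaB letters, 8.56% the IRF letters, 7.81% the AP-1 letters, 13.6% the TATA letters and 30.8% at least 1 of them, against 3 of 13 promoters of the members. The NF-kappaB and IRF letters occurred together in 0.432% of all promoters and, among the members, in that of Myd88.

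Between 57.4% and 65% of spots, controls left out, were well above background per channel, and no spot was saturated. Of 8 macrophage markers, 8 were above background in every EPM and BMDM condition, and of 7 B cell markers, 7 were in every B cell condition. From 5 to 7 of these B cell markers were also above background in macrophages (log2 of their sum 14.38 to 16.02, against 18.08 to 18.36 in B cells), with Blnk at 15.97 in untreated EPM and 16.07 in untreated B cells, while Pax5 was not detected in macrophage controls. Of 5 T cell markers, 1 to 3 were above background per condition. In B cells Lck was at 10.11 untreated and 11.43 after 12 h of DMSO, and the median T cell marker at 6.34 and 6.35. The macrophage markers summed to a log2 level of 18.82 to 19.01 in macrophages and of 11.35 to 12.67 in B cells, where Itgam, Fcgr1 and Mrc1 were not well above background, and the higher sums there were those of the 12 h arrays, carried by Emr1 (7.52 untreated, 10.88 in DMSO at 12 h) and Ctsd (10.66 and 11.87) while Cd68 (7.82 and 7.39) and Csf1r (6.45 and 6.27) were lower. Of the neutrophil markers, 4 were above background in BMDM (log2 of their sum 10.42 to 11.05), 2 in EPM and 1 in B cells, and their part in differences between the macrophage types was not tested. In the authors' table of normalized values, the columns of B cells treated with KLA for 1 h and with DMSO for 12 h matched the scanner data of each other's condition (lowest r 0.974, and no r above -0.706 with the condition named in the column), whereas the other 20 columns matched their own condition. The labels of the scanner files were kept, and B cell changes with KLA and 12 h levels are also given with these labels exchanged. Each cell type had a slide of its own with its 4 arrays, so that the effects of slide and of cell type on levels cannot be told apart, and in bulk RNA fewer cells of a type and less RNA per cell cannot be told apart. Levels are normalized log2 intensities, and levels of different genes were read by different probes and are not compared.

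**Figure D1:**
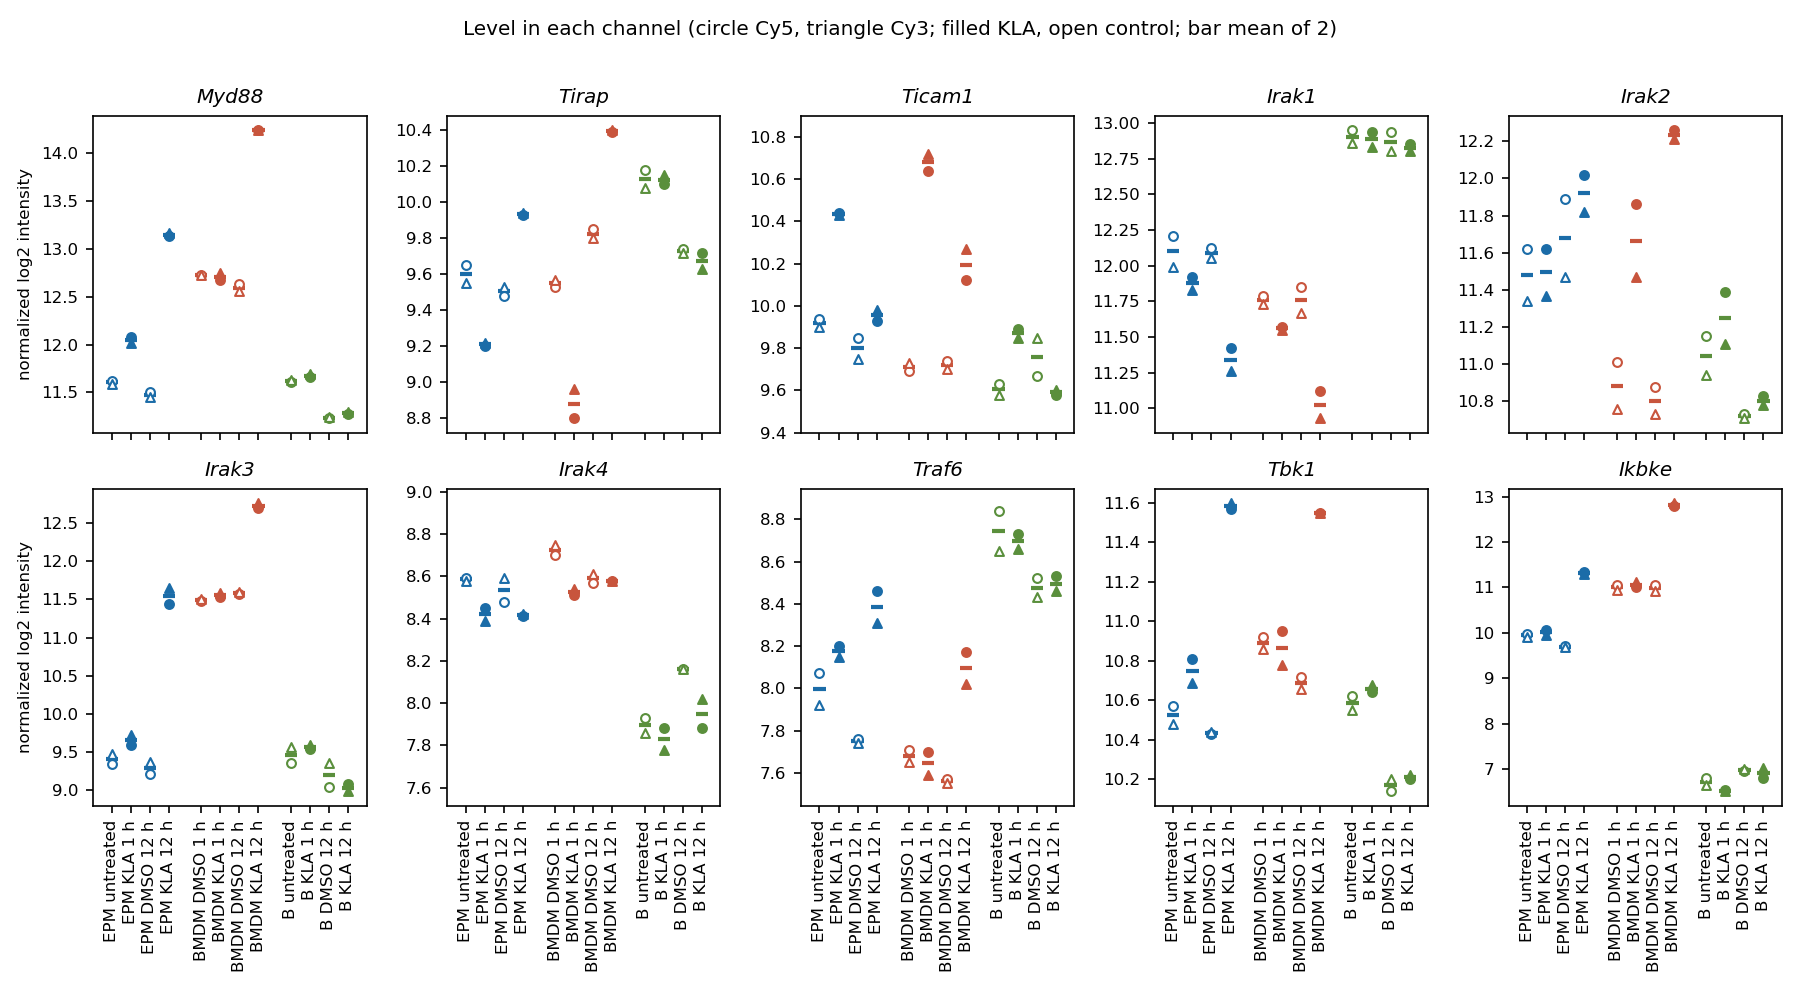
Level of each of the 10 genes in the 24 channels, 1 panel per gene, with the normalized log2 intensity on the vertical axis and the 12 conditions along the horizontal axis. Circles are Cy5, triangles Cy3, filled symbols KLA, open symbols controls, and bars the mean of 2. In the panels for Myd88, Irak3 and Ikbke, the KLA 12 h symbols stand above all other symbols of the same macrophage type, and the B cell symbols of Ikbke lie between 6.51 and 7.03.

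After 12 h of KLA most of the genes rose in both macrophage types, Irak1 fell in both, and Irak4 was called in neither. In EPM, 7 of 10 members changed (limma, Benjamini-Hochberg adjusted p under 0.05 over 17347 genes), 6 higher and 1 lower, against 53.9% of all genes tested, 19.6% higher and 34.3% lower. In BMDM, 9 of 10 changed, 8 higher and 1 lower, against 64.9% of all genes, 28.6% higher and 36.3% lower. The median log2 change of the members was 0.53 in EPM and 0.71 in BMDM, beside -0.06 and -0.03 over all genes. By at least 2-fold, 4 members rose in EPM (4.81% of all genes) and 4 in BMDM (6.25%). The 7 that changed in EPM changed the same way in BMDM, and over all genes the calls that the macrophage types shared with the same direction made up 68.6% of those in EPM and 56.9% of those in BMDM. With array means as the samples and the 2 control arrays of a cell type as replicates (3 residual degrees of freedom), 5 members remained past the threshold in each type, Myd88, Irak1, Irak3 and Ikbke in both, Tbk1 in EPM (adjusted p = 0.0322) and Irak2 in BMDM (adjusted p = 0.00804), with 11.6% of all genes called in EPM and 21.1% in BMDM. In this fit each KLA array was compared with the mean of an early and a 12 h control array. Its contrast is therefore not at the same time, and the difference between those controls enters its error.

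The changes at 1 h were fewer and smaller, and no member changed by 2-fold. In EPM, 5 of 10 members changed, 3 higher and 2 lower, against 29.1% of all genes, 9.39% higher and 19.7% lower. In BMDM, 4 of 10 changed, 2 higher and 2 lower, against 28.6% of all genes, 11% higher and 17.6% lower. Ticam1, Tirap and Irak4 were called in both types with the same direction. Over all genes, calls shared with the same direction made up 53.4% of those in EPM and 54.4% of those in BMDM. The median log2 change of the members was 0.12 in EPM and -0.02 in BMDM, beside -0.05 and -0.03 over all genes. With the dye as a replicate block, 8 members were called in EPM (40.6% of all genes), since Irak1 (adjusted p = 0.00228), Irak3 (adjusted p = 0.00735) and Traf6 (adjusted p = 0.00851) were added. With array means as the samples, limma called 0 members at 1 h in either type, beside 0.951% of all genes in EPM and 0.571% in BMDM. At an unadjusted p under 0.05 there were 2 members in EPM and 3 in BMDM. The share of all genes at that unadjusted level is not given.

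**Figure D2:**
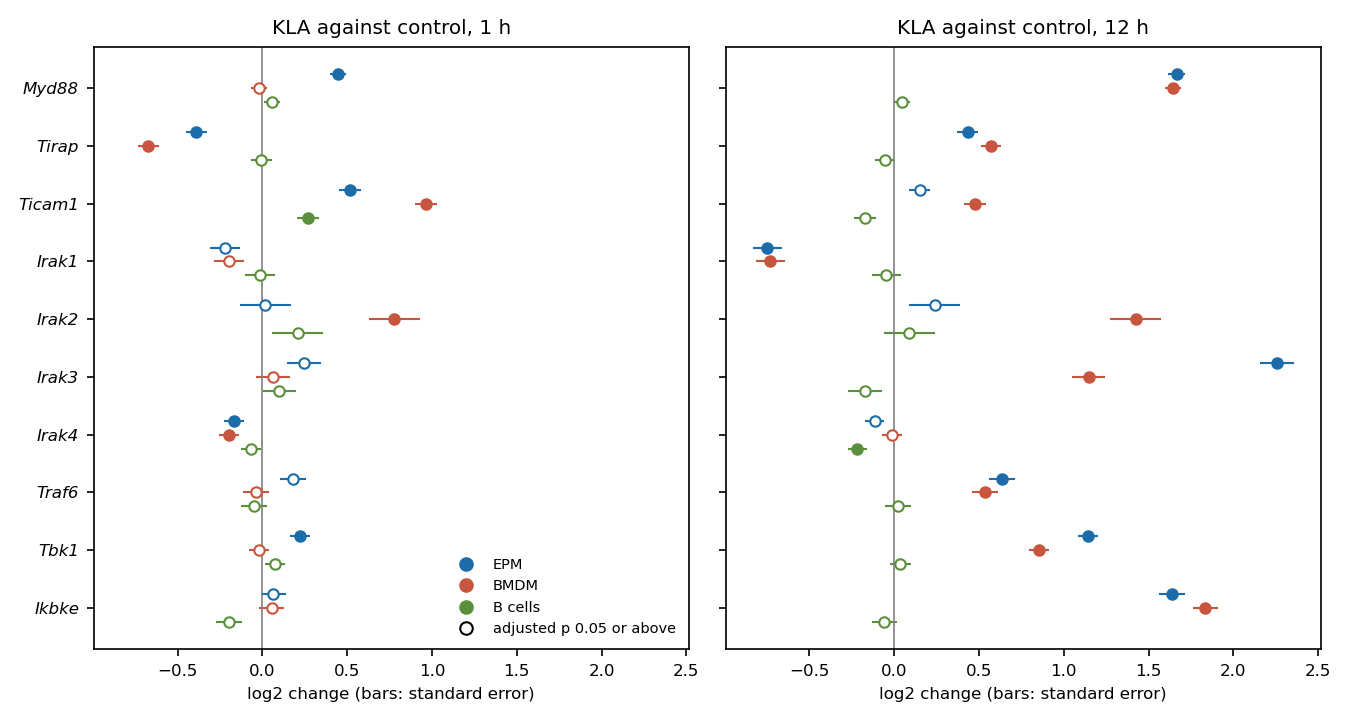
Log2 change of each of the 10 genes with KLA against the control of the same time, at 1 h in one panel and at 12 h in the other, for EPM, BMDM and B cells, with bars for the standard error of the fit (n = 2 per group). At 12 h the macrophage values of Myd88, Irak3 and Ikbke lie between 1.15 and 2.26 and those of Irak1 at -0.75 and -0.73, and the B cell values lie between -0.22 and 0.09.

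Myd88, the adaptor shared by most TLRs, was read by 1 probe (chr9:119184902-119184961 on mm8) printed 10 times on each array. In EPM its replicates were at 11.62 and 11.59 untreated, 12.08 and 12.02 after 1 h of KLA, 11.50 and 11.45 after 12 h of DMSO, and 13.13 and 13.16 after 12 h of KLA. In BMDM they were at 12.73 and 12.73 after 1 h of DMSO, 12.67 and 12.75 after 1 h of KLA, 12.63 and 12.56 after 12 h of DMSO, and 14.24 and 14.24 after 12 h of KLA. The EPM groups were separate at both times, whereas the BMDM groups overlapped at 1 h and were far apart at 12 h. Myd88 rose 1.36-fold in EPM at 1 h (log2 change 0.44 ± 0.05 SE, adjusted p = 1.11e-06). At 12 h it rose 3.17-fold in EPM (log2 change 1.67 ± 0.05 SE, adjusted p = 1.29e-15) and 3.13-fold in BMDM (log2 change 1.65 ± 0.05 SE, adjusted p = 1.35e-15). The BMDM value at 1 h was -0.02 (adjusted p = 0.802). From 8 to 10 spots per channel were used, their standard deviation was 0.038 to 0.209, and the replicates of a condition differed by 0 to 0.08. At 1 h the response was larger in EPM than in BMDM by 0.47 on the log2 scale (adjusted p = 0.000125). The control level was lower in EPM than in BMDM, by 2.17-fold in the 12 h DMSO cells (log2 difference -1.12, adjusted p = 3.77e-13), and the EPM level after 12 h of KLA was above that of BMDM controls.

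Tirap, the adaptor that links TLR4 to MyD88, moved in opposite directions at the early and the late time. In EPM its replicates were at 9.65 and 9.55 untreated, 9.20 and 9.22 after 1 h of KLA, 9.48 and 9.53 after 12 h of DMSO, and 9.93 and 9.94 after 12 h of KLA. In BMDM they were at 9.53 and 9.57, then 8.80 and 8.96 at 1 h, and at 9.85 and 9.80, then 10.39 and 10.40 at 12 h. KLA channels lay below their controls at 1 h and above them at 12 h in both types, with no overlap. The probe used (chr9:34937022-34937081 on mm8) fell by 0.39 in EPM (adjusted p = 6.33e-05) and by 0.67 in BMDM (adjusted p = 7.93e-08) on the log2 scale at 1 h. It rose by 0.43 in EPM (adjusted p = 5.79e-06) and by 0.57 in BMDM (adjusted p = 1.08e-07) at 12 h. The other Tirap probe gave the same directions, -0.53 and -0.75 at 1 h and 0.28 and 0.66 at 12 h. The difference of the EPM and BMDM responses at 1 h was 0.28 (adjusted p = 0.0415), and it missed the threshold when certain single channels were left out (for example adjusted p = 0.188 without BMDM KLA 1 h replicate 1).

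Ticam1, which encodes TRIF, was highest at 1 h of KLA. In EPM its replicates were at 9.94 and 9.90 untreated, 10.44 and 10.43 after 1 h of KLA, 9.85 and 9.75 after 12 h of DMSO, and 9.93 and 9.98 after 12 h of KLA. In BMDM they were at 9.69 and 9.73, then 10.64 and 10.72 at 1 h, and at 9.74 and 9.70, then 10.12 and 10.27 at 12 h. The KLA channels lay above the controls of the same time in each of these pairs, most clearly in BMDM at 1 h. Ticam1 (probe chr17:55903571-55903630 on mm8) rose 1.43-fold in EPM (log2 change 0.52 ± 0.06 SE, adjusted p = 4.95e-06) and 1.95-fold in BMDM (log2 change 0.96 ± 0.06 SE, adjusted p = 1.27e-09) at 1 h. At 12 h it rose 1.39-fold in BMDM (log2 change 0.48, adjusted p = 2.65e-06), and its EPM value was 0.15 (adjusted p = 0.0562, and 0.0373 with the replicate block). The response was smaller in EPM than in BMDM at 1 h (difference -0.44, adjusted p = 0.0028) and at 12 h (-0.33, adjusted p = 0.00617), the latter turning to 0.09 (adjusted p = 0.413) without normalization between arrays. A second, overlapping probe gave 0.46 and 0.96 at 1 h and 0.12 and 0.74 at 12 h in EPM and BMDM.

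The IRAK genes went separate ways. Irak1, a kinase recruited to MyD88, was the single member that fell in macrophages at 12 h. In EPM its replicates were at 12.12 and 12.05 after 12 h of DMSO and at 11.42 and 11.26 after 12 h of KLA. In BMDM they were at 11.85 and 11.67, then 11.12 and 10.93. The groups were well separated in both types. Irak1 (probe chrX:70267882-70267941 on mm8) was 1.68-fold lower with KLA in EPM (log2 change -0.75 ± 0.09 SE, adjusted p = 6.92e-07) and 1.66-fold lower in BMDM (log2 change -0.73 ± 0.09 SE, adjusted p = 6.29e-07). The other 2 Irak1 probes gave -0.63 and -0.79 in EPM and -0.55 and -0.81 in BMDM at 12 h, all past the threshold in a fit over all probes. At 1 h the EPM replicates were at 12.21 and 11.99 untreated and 11.92 and 11.83 with KLA, and the BMDM replicates at 11.79 and 11.73, then 11.57 and 11.55. KLA channels lay lower without overlap, by less than the fit could call (-0.22, adjusted p = 0.0667 in EPM, and -0.20, adjusted p = 0.105 in BMDM). With the replicate block both were past the threshold (adjusted p = 0.00228 and 0.00623). The other probes gave -0.08 and -0.04 in EPM (adjusted p = 0.701 and 0.736) and 0.04 and -0.08 in BMDM (adjusted p = 0.839 and 0.484) at 1 h, so that a lower value at 1 h rests on 1 of 3 probes.

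Irak2, the IRAK kinase that sustains late signalling, changed in BMDM and was not called in EPM. Its BMDM replicates were at 11.01 and 10.76 after 1 h of DMSO, 11.86 and 11.47 after 1 h of KLA, 10.88 and 10.73 after 12 h of DMSO, and 12.26 and 12.21 after 12 h of KLA. Its EPM replicates were at 11.62 and 11.34 untreated, 11.62 and 11.37 after 1 h of KLA, 11.89 and 11.47 after 12 h of DMSO, and 12.02 and 11.82 after 12 h of KLA. KLA and control channels overlapped in EPM at both times and were separate in BMDM at both times. In BMDM, Irak2 (probe chr6:113660271-113660330 on mm8) rose 1.71-fold at 1 h (log2 change 0.78 ± 0.15 SE, adjusted p = 0.000648) and 2.68-fold at 12 h (log2 change 1.43 ± 0.15 SE, adjusted p = 1.17e-07). In EPM the change was 0.02 (adjusted p = 0.954) at 1 h and 0.24 (adjusted p = 0.195) at 12 h. Irak2 had the widest spread between dyes, and the EPM value at 12 h passed the threshold with the replicate block (adjusted p = 0.0104) or without EPM DMSO 12 h replicate 1 (0.45, adjusted p = 0.0324). The response was smaller in EPM than in BMDM at 1 h (difference -0.76, adjusted p = 0.0277) and more so at 12 h (difference -1.19, adjusted p = 0.000156). The value at 1 h missed the threshold without certain single channels, for example at an adjusted p of 0.143 without EPM untreated replicate 1. The control level was higher in EPM than in BMDM, by 1.83-fold at 12 h (adjusted p = 6.35e-05).

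Irak3, the inhibitory family member, was the member whose control level differed most between the macrophage types. Its EPM replicates were at 9.34 and 9.48 untreated, 9.59 and 9.72 after 1 h of KLA, 9.21 and 9.37 after 12 h of DMSO, and 11.44 and 11.65 after 12 h of KLA. Its BMDM replicates were at 11.48 and 11.50 after 1 h of DMSO, 11.53 and 11.58 after 1 h of KLA, 11.57 and 11.59 after 12 h of DMSO, and 12.69 and 12.76 after 12 h of KLA. The EPM channels at 12 h of KLA overlapped the BMDM controls, and the BMDM channels at 12 h of KLA lay above all others. At 12 h Irak3 (probe chr10:119545003-119545062 on mm8) rose 4.78-fold in EPM (log2 change 2.26 ± 0.10 SE, adjusted p = 5.63e-13) and 2.21-fold in BMDM (log2 change 1.15 ± 0.10 SE, adjusted p = 7.27e-09). The response was larger in EPM by 1.11 (adjusted p = 3.16e-06). In the 12 h DMSO cells it was 4.9-fold lower in EPM than in BMDM (log2 difference -2.29, adjusted p = 3.51e-13). The probes differed in size, with 2.21 and 1.63 in EPM and 1.43 and 1.47 in BMDM for the other 2 at 12 h, so that the last of them showed a much smaller gap between the types than the probe used. At 1 h the EPM change was 0.25 (adjusted p = 0.0715), and another probe gave 0.35 (adjusted p = 0.000869).

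Irak4, the kinase that starts the IRAK cascade, varied least of the 10, with a range of 0.90 between its lowest and highest condition means. Its EPM replicates were at 8.59 and 8.58 untreated and 8.45 and 8.39 after 1 h of KLA, and at 8.48 and 8.59, then 8.41 and 8.42 at 12 h. Its BMDM replicates were at 8.70 and 8.75, then 8.51 and 8.54 at 1 h, and at 8.57 and 8.61, then 8.58 and 8.58 at 12 h. The KLA channels at 1 h were slightly lower in both types. Irak4 (probe chr15:94395492-94395551 on mm8) fell by 0.17 in EPM (adjusted p = 0.0358) and by 0.20 in BMDM (adjusted p = 0.0151) on the log2 scale at 1 h. Leaving out any of the 4 EPM channels ended the first call (adjusted p from 0.0637 to 0.193), and the second was lost without BMDM KLA 1 h replicate 1 (adjusted p = 0.0861) or BMDM DMSO 1 h replicate 2 (adjusted p = 0.0996). In the fit over all probes, a second Irak4 probe gave -0.29 in EPM (adjusted p = 0.00653) and -0.24 in BMDM (adjusted p = 0.0205) at 1 h. At 12 h Irak4 was not called in EPM (-0.12, adjusted p = 0.101) or BMDM (-0.01, adjusted p = 0.853).

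Traf6, the ubiquitin ligase downstream of the IRAK kinases, rose at 12 h by the probe used (chr2:101501342-101501401 on mm8) and not by its other detected probe. The EPM replicates were at 7.76 and 7.74 after 12 h of DMSO and at 8.46 and 8.31 after 12 h of KLA, and the BMDM replicates at 7.57 and 7.55, then 8.17 and 8.02. The groups did not overlap. The change was 0.64 in EPM (adjusted p = 1.05e-06) and 0.53 in BMDM (adjusted p = 6.1e-06). The second probe (chr2:101503179-101503238) gave -0.06 in EPM (adjusted p = 0.415) and 0.10 in BMDM (adjusted p = 0.166) in the fit over all probes, and the last (chr2:101495166-101495225) was above background in 0 of 24 channels. A rise of Traf6 therefore rests on 1 probe. The replicates at 1 h stood at 8.07 and 7.92 untreated and 8.20 and 8.15 with KLA in EPM (0.18, adjusted p = 0.0906), and at 7.71 and 7.65, then 7.70 and 7.59 in BMDM (-0.04, adjusted p = 0.77).

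**Figure D3:**
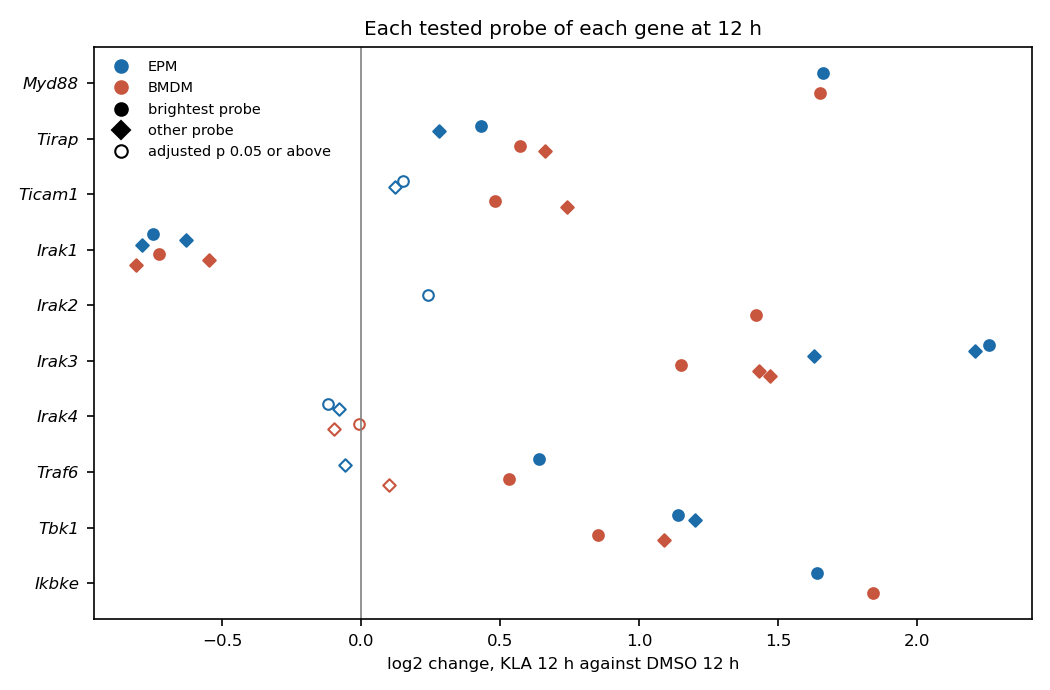
Log2 change with KLA at 12 h against DMSO at 12 h for each tested probe of each gene, in EPM and BMDM, 19 probes in all. The 3 Irak1 probes lie below 0 in both types, the Irak3 and Tbk1 probes lie above 0, and the 2 Traf6 probes lie apart, at 0.64 and -0.06 in EPM.

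The IKK-related kinases both rose at 12 h. Tbk1 had EPM replicates at 10.57 and 10.48 untreated, 10.81 and 10.69 after 1 h of KLA, 10.43 and 10.44 after 12 h of DMSO, and 11.57 and 11.60 after 12 h of KLA. Its BMDM replicates were at 10.92 and 10.86, then 10.95 and 10.78 at 1 h, and at 10.72 and 10.66, then 11.55 and 11.55 at 12 h. After 12 h of KLA the macrophage types reached nearly the same level, from lower controls in EPM. Tbk1 (probe chr10:120954368-120954591 on mm8) rose 2.21-fold in EPM (log2 change 1.14 ± 0.06 SE, adjusted p = 1.31e-11) and 1.81-fold in BMDM (log2 change 0.85 ± 0.06 SE, adjusted p = 5.82e-10), and the responses differed by 0.29 (adjusted p = 0.011). A second probe gave 1.20 and 1.09, a smaller gap between the types. Over 21 alternative fits the difference of the responses ran from 0.11 to 0.67, and 3 of them lost the call. At 1 h Tbk1 rose by 0.22 in EPM (adjusted p = 0.0103), a call lost without EPM KLA 1 h replicate 1 (0.17, adjusted p = 0.141) or EPM untreated replicate 2 (0.17, adjusted p = 0.112), and the BMDM value was -0.02 (adjusted p = 0.855). The second probe gave 0.23 in EPM (adjusted p = 0.00773) and 0.08 in BMDM (adjusted p = 0.363) at 1 h in the fit over all probes.

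Ikbke, the inducible relative of Tbk1, had the widest range of the 10. Its EPM replicates were at 9.98 and 9.91 untreated, 10.07 and 9.95 after 1 h of KLA, 9.70 and 9.68 after 12 h of DMSO, and 11.35 and 11.29 after 12 h of KLA. Its BMDM replicates were at 11.06 and 10.95 after 1 h of DMSO, 11.01 and 11.11 after 1 h of KLA, 11.05 and 10.93 after 12 h of DMSO, and 12.79 and 12.86 after 12 h of KLA. The groups overlapped at 1 h and were far apart at 12 h in both types. At 12 h Ikbke (probe chr1:133082778-133082837 on mm8) rose 3.11-fold in EPM (log2 change 1.64 ± 0.08 SE, adjusted p = 1.09e-12) and 3.57-fold in BMDM (log2 change 1.84 ± 0.08 SE, adjusted p = 1.49e-13). At 1 h the changes were 0.06 in EPM (adjusted p = 0.584) and 0.06 in BMDM (adjusted p = 0.648). The control level was 2.47-fold lower in EPM than in BMDM in the 12 h DMSO cells (log2 difference -1.31, adjusted p = 2.4e-11).

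The responses of EPM and BMDM were compared directly by the difference of their log2 changes. At 1 h, 4 of 10 members differed (9.56% of all genes), Myd88 and Tirap with the higher value in EPM and Ticam1 and Irak2 with the higher value in BMDM. At 12 h, 4 differed (47.8% of all genes), Irak3 and Tbk1 with the larger rise in EPM and Ticam1 and Irak2 with the larger rise in BMDM. The share of members at 12 h was below that of all genes. With the replicate block, Traf6 (0.22, adjusted p = 0.0457) and Tbk1 (0.24, adjusted p = 0.0405) were added at 1 h. With array means as the samples, limma called 0 of these differences. At an unadjusted p under 0.05 there were 1 at 1 h and 2 at 12 h, without a share of all genes to set beside them. Without normalization between arrays, 8 differed at 12 h (52.8% of all genes), and the median of all genes moved by 0.19.

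**Figure D4:**
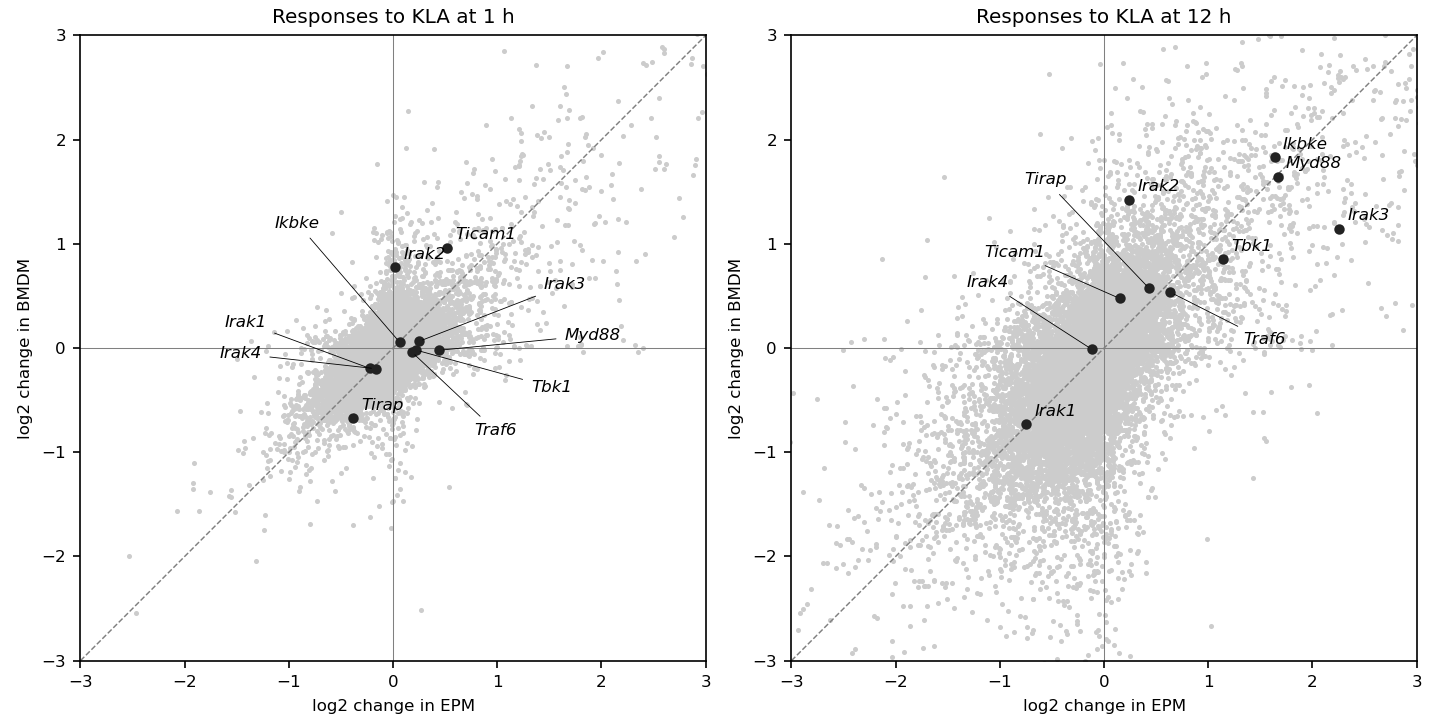
Log2 change with KLA in EPM (horizontal) against that in BMDM (vertical), at 1 h and at 12 h. The 10 genes are dark labelled points, and all genes tested are in grey. Genes beyond the axis limits are not shown, and the dashed line is the diagonal. At 12 h Irak3 lies on the EPM side of the diagonal (2.26 and 1.15) and Irak2 on the BMDM side (0.24 and 1.43), and Myd88 lies near it (1.67 and 1.65).

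In B cells few members changed with KLA under the scanner labels. At 1 h, 1 of 10 members changed (5.17% of all genes), and at 12 h, 1 of 10 (5.29%), with a median log2 change of 0.02 and -0.05 beside 0.01 and -0.01 over all genes. Ticam1 was at 9.63 and 9.58 untreated and at 9.89 and 9.85 after 1 h of KLA, without overlap, and rose by 0.27 (adjusted p = 0.0187). Irak4 was at 8.16 and 8.16 after 12 h of DMSO and at 7.88 and 8.02 after 12 h of KLA, without overlap, and fell by 0.22 on the log2 scale (adjusted p = 0.034). The first call was lost without any single channel of the 4 (0.25 to 0.29, adjusted p from 0.068 to 0.155), and the second without DMSO replicate 1 (adjusted p = 0.143), DMSO replicate 2 (adjusted p = 0.136) or KLA replicate 1 (adjusted p = 0.347). By their second probes, in the fit over all probes, these values were 0.27 for Ticam1 (adjusted p = 0.12) and -0.13 for Irak4 (adjusted p = 0.402). With array means as the samples, limma called 0 at either time (0.0807% and 0.00576% of all genes), with 0 at an unadjusted p under 0.05. That fit pools the untreated and the 12 h DMSO array as controls. Where these differ, as for Myd88 (11.62 and 11.23) and Tirap (10.13 and 9.73), it can call little. Its count of 0 is therefore not read as an absence of change.

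Myd88 in B cells was at 11.61 and 11.63 untreated, 11.66 and 11.69 after 1 h of KLA, 11.23 and 11.24 after 12 h of DMSO, and 11.27 and 11.30 after 12 h of KLA. The larger step was between the early and the 12 h arrays and not between KLA and control. Tbk1 showed the same arrangement, at 10.62 and 10.55, 10.64 and 10.68, 10.14 and 10.20, and 10.20 and 10.22 in that order of conditions. Tirap was at 10.18 and 10.08, 10.10 and 10.15, 9.74 and 9.72, and 9.72 and 9.63. The macrophage markers Emr1 and Ctsd and the T cell marker Lck were also brighter in the 12 h B cell arrays. The median macrophage marker was at 6.98 untreated and 6.83 in DMSO at 12 h. Of the other T cell markers, Cd3e was at 7.05 and 7.12 in these conditions and Cd3d at 6.34 and 6.35. Cd3g was at 6.1 and 6.23, and Cd8a at 6.23 and 6.15. The part of the markers in these steps was not tested. When the labels of the KLA 1 h and DMSO 12 h arrays were exchanged, these steps fell between KLA and control. With the labels exchanged, 7 members were called at 1 h (47.4% of all genes), 2 higher and 5 lower, and 8 at 12 h (49.1%), 1 higher and 7 lower. Myd88 was then at -0.39 at both times (adjusted p = 2.28e-06 and 1.97e-06), Tirap at -0.40 and -0.45, and Tbk1 at -0.41 and -0.45. Irak3 was then at -0.26 and -0.53, Traf6 at -0.27 and -0.20, and Ikbke at 0.26 and 0.40.

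At 12 h, 9 of 10 members responded differently in B cells than in the mean of the macrophage types (55.7% of all genes), 8 with a lower value in B cells (22% of all genes) and Irak1 with a higher one (33.8%). The differences were -1.61 for Myd88, -1.79 for Ikbke, -1.87 for Irak3 and 0.69 for Irak1. With the B cell labels exchanged, 10 were called (65.8% of all genes). At 1 h, Ticam1 (-0.47, adjusted p = 0.000202) and Tirap (0.52, adjusted p = 3.39e-05) differed, 2 of 10 members beside 21.9% of all genes, and with the replicate block 4 (33.5%), with Irak1 (adjusted p = 0.029) and Ikbke (adjusted p = 0.0239) added. With the labels exchanged, 7 differed at 1 h (49.8% of all genes). With array means as the samples, 4 remained at 12 h (Myd88, Irak1, Irak3 and Ikbke, beside 7.52% of all genes) and 0 by limma at 1 h. At an unadjusted p under 0.05 there were 2 at 1 h, and the share of all genes at that level is not given.

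Control levels set the cell types apart in a manner that differed by gene. Between EPM and BMDM, 8 of 10 members differed in the 12 h DMSO cells (56.9% of all genes), with Myd88, Tirap, Irak3, Tbk1 and Ikbke lower in EPM and Irak1, Irak2 and Traf6 higher. In the early controls, 9 differed (57.8%), among them Myd88 (-1.12), Irak3 (-2.09), Ikbke (-1.06) and Irak2 (0.60). The Traf6 difference of 0.19 at 12 h (adjusted p = 0.0445) was lost without any single channel (adjusted p from 0.1 to 0.138), and the Irak1 difference of 0.33 without BMDM DMSO 12 h replicate 2 (adjusted p = 0.0626). In the early controls, the Ticam1 difference of 0.20 and the Irak1 difference of 0.34 were lost without EPM untreated replicate 1 (adjusted p = 0.0688 and 0.0649), that of Ticam1 also without BMDM DMSO 1 h replicate 1 (adjusted p = 0.0678), and that of Irak4 (-0.14) without any single channel (adjusted p from 0.0671 to 0.201).

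Between untreated B cells and EPM, 7 of 10 members differed (77.2% of all genes), 8 of 10 between their 12 h DMSO cells (76.9%), and 7 of 10 between B cells and BMDM in DMSO at 12 h (76.3%). Ikbke was the member with the largest gap. Its B cell replicates were at 6.79 and 6.64 untreated, 6.53 and 6.51 after 1 h of KLA, 6.96 and 6.99 after 12 h of DMSO, and 6.81 and 7.03 after 12 h of KLA, all well above background and all below every macrophage channel. It was 9.37-fold lower in B cells than in EPM, both untreated (log2 difference -3.23, adjusted p = 7.24e-18), and 16.1-fold lower than in BMDM in DMSO at 12 h (log2 difference -4.01, adjusted p = 3.17e-19). With processed signals these differences were -4.52 and -4.98. Irak1 was higher in B cells, at 12.95 and 12.86 untreated and 12.94 and 12.80 after 12 h of DMSO, by 1.74-fold over untreated EPM (adjusted p = 1.01e-07) and 2.16-fold over BMDM in DMSO at 12 h (adjusted p = 1.02e-09). Traf6 was also higher in B cells, at 8.84 and 8.65 untreated and 8.52 and 8.43 after 12 h of DMSO, by 1.68-fold over EPM and 1.88-fold over BMDM. Irak3 and Myd88 in untreated B cells overlapped untreated EPM (differences 0.06, adjusted p = 0.606, and 0.01, adjusted p = 0.813) and in DMSO at 12 h lay below BMDM by 5.18-fold and 2.57-fold. Irak4 was lower in B cells than in EPM, by 1.61-fold untreated (log2 difference -0.69, adjusted p = 2.51e-09), but by its second probe the difference was -0.18 (adjusted p = 0.0342), and in DMSO at 12 h that probe reversed it from -0.37 to 0.21 (adjusted p = 0.014). With the B cell labels exchanged, 9 members differed from EPM (76.5% of all genes) and 9 from BMDM (76.2%) in DMSO at 12 h, and the differences from BMDM were -4.47 for Ikbke, 1.13 for Irak1, 1.14 for Traf6, -2.01 for Irak3 and -0.92 for Myd88.

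Ordered by condition mean, Ikbke ran from 6.52 in B cells after 1 h of KLA to 12.83 in BMDM after 12 h of KLA, a 79.3-fold span. Below BMDM with KLA at 12 h stood EPM with KLA at 12 h (11.32), then the other 3 BMDM conditions (10.99 to 11.06, whose ranges overlapped), then the other 3 EPM conditions (9.69 to 10.01), then B cells. The spans of the condition means on the log2 scale were 6.31 for Ikbke, 3.69 for Irak3, 3.01 for Myd88, 1.87 for Irak1, 1.52 for Tirap, 1.51 for Irak2, 1.41 for Tbk1, 1.19 for Traf6, 1.09 for Ticam1 and 0.90 for Irak4. For the 3 members with the widest span, the genes whose 12 condition means were most alike were BB220380 (Pearson r = 0.995), Ccl8 (0.994) and Ppm1h (0.994) for Ikbke, Ms4a6b (0.985), Fpr1 (0.982) and Fpr-rs2 (0.98) for Irak3, and Klk1b3 (0.985), AI481105 (0.975) and Plagl2 (0.974) for Myd88. The 12 means share slides and cell types, and the r values are a description.

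The surrounding pathway was described with 28 other genes in 5 lists, chosen with earlier results of these data known. Their counts beside the shares of all genes are therefore a description. Of the 28 genes, 27 were tested and Sarm1 was not analysed here. Over these 27, 15 rose and 6 fell in EPM at 12 h, beside 19.6% and 34.3% of all genes, and 16 rose and 7 fell in BMDM at 12 h, beside 28.6% and 36.3%. At 1 h, 11 rose and 3 fell in EPM, beside 9.39% and 19.7%, and 10 rose and 5 fell in BMDM, beside 11% and 17.6%. The counts of single lists are to be read against the same shares. On array means, 7 of the 21 calls in EPM and 11 of the 23 in BMDM remained at 12 h, and at 1 h 3 of 14 and 3 of 15 (Peli1, Tnfaip3 and Nfkbia in both). In the receptor complex, Cd14, the co-receptor that hands endotoxin to TLR4, rose in EPM by 2.38 at 1 h and 1.79 at 12 h and in BMDM by 1.53 and 1.18. Tlr4 itself fell by 0.76 in EPM at 12 h and was at 0.03 in BMDM (adjusted p = 0.686). These calls were lost with array means as the samples (adjusted p from 0.0553 to 0.264). Among 7 genes of the ubiquitin and TAK1 step, 4 rose and 1 fell in BMDM at 12 h, with Peli1, a ubiquitin ligase that acts on IRAK proteins, at 1.92, 1.73, 1.92 and 2.57 (EPM 1 h, EPM 12 h, BMDM 1 h, BMDM 12 h). Of the 3 genes of the canonical IKK complex, 0 changed in EPM at 12 h, and in BMDM at 12 h Chuk (0.22) and Ikbkb (0.29) rose and Ikbkg fell by 0.22, all smaller than the changes of Tbk1 and Ikbke and all lost with array means (adjusted p from 0.261 to 0.574).

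Among 7 partners of the TRIF and TBK1 arm, 5 rose and 2 fell in EPM at 12 h, and 3 rose and 3 fell in BMDM. Tank, a scaffold of TBK1 and IKK-epsilon, rose by 1.51 and 1.77 in EPM and by 0.74 and 1.38 in BMDM at 1 and 12 h. Azi2, another scaffold of these kinases, rose by 1.50 in EPM and 2.04 in BMDM at 12 h. Ticam2, the adaptor that bridges TLR4 to TRIF, rose by 0.47 in EPM at 12 h and by 0.45 and 1.05 in BMDM at 1 and 12 h. Irf3, a substrate of the kinases, fell by 0.43 in EPM and by 0.62 in BMDM at 12 h. With array means both Irf3 calls were lost (adjusted p = 0.662 and 0.326). So were those of Tank at 1 h (adjusted p = 0.078 in EPM and 0.29 in BMDM) and of Ticam2 in EPM at 12 h (0.076) and BMDM at 1 h (0.387). Among 7 tested inhibitors, 5 rose and 2 fell in each macrophage type at 12 h. Nfkbia, which encodes the NF-kappaB inhibitor I-kappaB-alpha, rose by 4.62 in EPM and 3.04 in BMDM at 1 h, and Tnfaip3, which encodes the ubiquitin-editing enzyme A20, by 4.28 and 4.40. Socs1, an inhibitor of cytokine receptor signalling, was highest at 12 h (3.70 in EPM and 4.91 in BMDM). Tnip1, a partner of A20, rose by 1.23 and 1.80 in EPM, and Sigirr, a decoy-like receptor that restrains TLR signalling, fell by 1.46 in BMDM at 12 h. With array means the Tnip1 calls at 1 h (adjusted p = 0.119 in EPM and 0.3 in BMDM) and the Sigirr calls (adjusted p = 0.565 in EPM and 0.118 in BMDM) were lost. In B cells limma called 0 of the 27 at 1 h (5.17% of all genes), with 5 at an unadjusted p under 0.05, and 3 at 12 h (5.29%), Cd14 (0.61), Tnfaip3 (0.57) and Ticam2 (0.25), and with array means 0 at 12 h (adjusted p of 1 for each of the 3, and 0 of the 27 at an unadjusted p under 0.05). With the B cell labels exchanged, 5 were higher and 12 lower at 1 h, beside 47.4% of all genes called in either direction. At 12 h, 4 were higher and 10 lower, beside 49.1%, with Cd14 at 0.37 (adjusted p = 0.00429), Tnfaip3 at -0.43 (adjusted p = 2.88e-05) and Ticam2 at 0.12 (adjusted p = 0.0929).

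**Figure D5:**
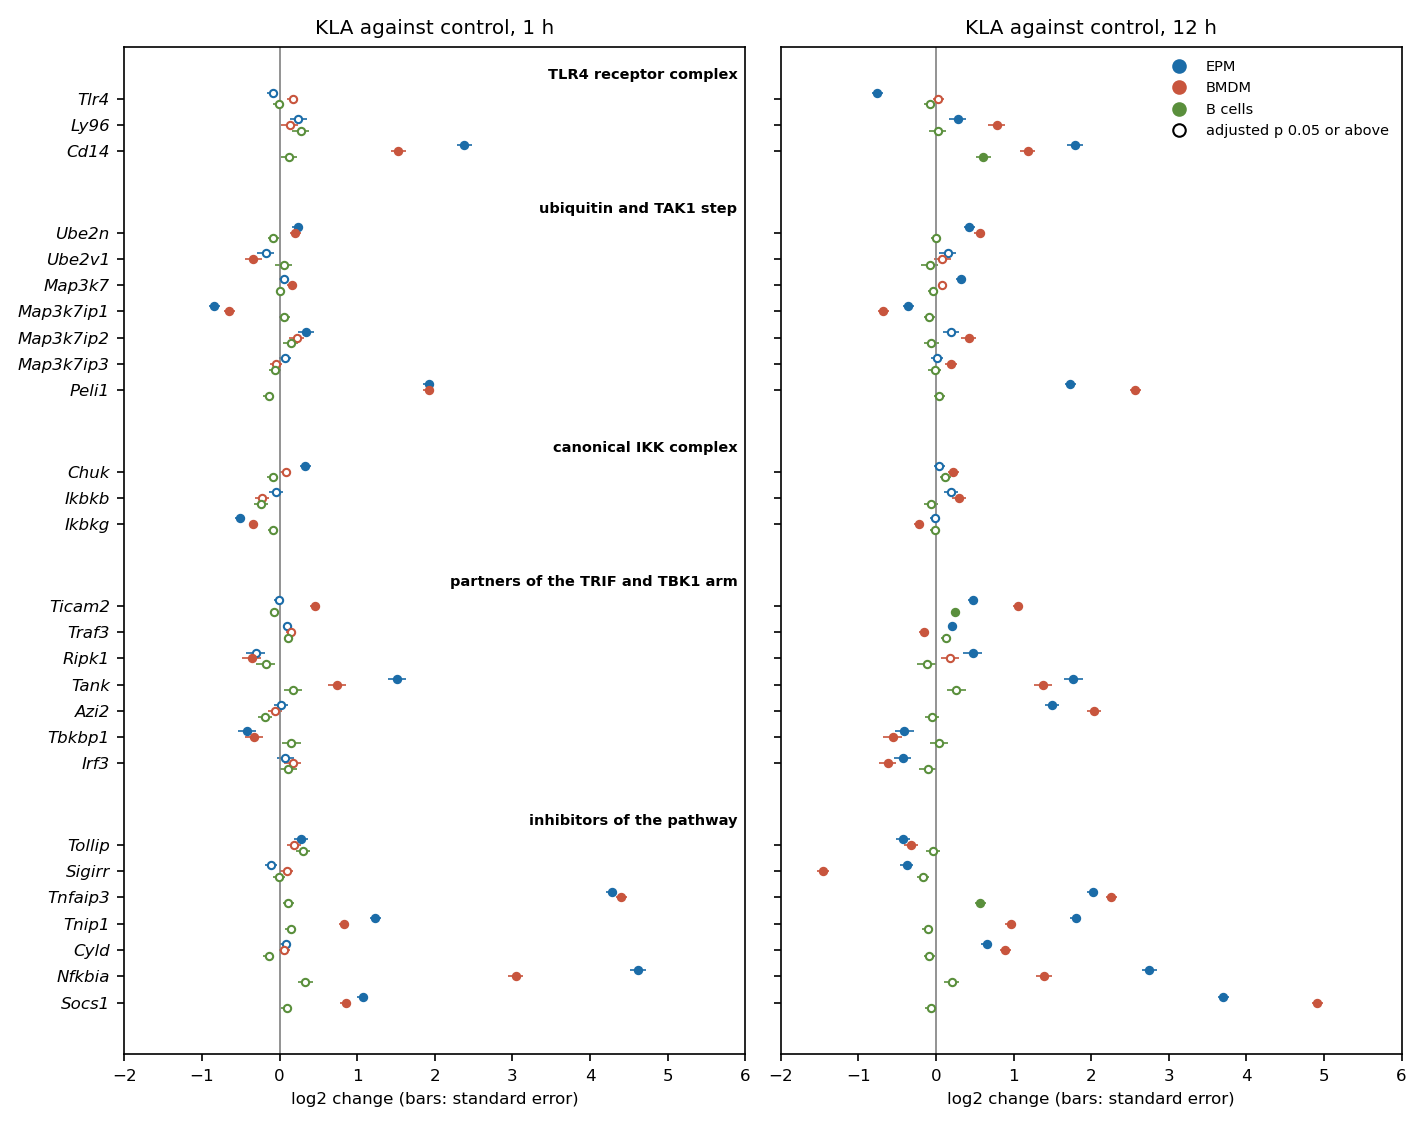
Log2 change with KLA of the 27 tested genes of the surrounding pathway, grouped by list, at 1 h in one panel and at 12 h in the other, for EPM, BMDM and B cells, with bars for the standard error. The inhibitors Nfkbia and Tnfaip3 lie furthest to the right at 1 h (3.04 to 4.62 in macrophages) and Socs1 at 12 h (3.70 and 4.91).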

How the data were processed

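Mouse whole genome arrays (2-colour, 24 channels) were analysed. The authors deposited, for every array, intensities from Agilent Feature Extraction 9.5.3.1 (mean, background and processed) together with normalized intensities of 38516 probes, whose normalization is not given in the sources used here. Samples were grouped by the labels. Background was corrected with normexp (offset 50, which compresses changes of dim genes), dyes were balanced by loess within arrays, and arrays were scaled to each other by quantile normalization of their mean intensities. Spots were averaged per probe after outlier spots were set missing (134 missing values among the genes tested), and the brightest probe stood for its gene. A gene entered the test where both channels of some condition were well above background (17347 genes), with limma 3.58.1 in R 4.3.3 (data.table version 1.17.8), with 1 coefficient per condition, 12 residual degrees of freedom and Benjamini-Hochberg adjustment over all of them. The fit was run on simulated data with noise drawn independently for each channel. That simulation holds no shared array or dye effect, so it cannot check the p-values against these. Precision is limited by the number of arrays and by a median signal of 1.77 to 3.06 times background per channel.

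Named genes were the 10 members, the pathway genes past the threshold with a log2 change of at least 1 in a macrophage type, and the 3 genes most alike to each of the 3 members of widest span. Irf3, Tlr4, the IKK genes and the genes called in B cells were named after their values were seen. Members, lists and motifs were chosen with earlier results of these data known. The replicate number is the dye, and Cy5 minus Cy3 correlated in 66 of 66 pairs of arrays (r of 0.26 to 0.63), so the numbers pair the channels and the fit was repeated with a replicate block. The other alternatives were an offset of 16, processed signals, quantile normalization over channels, no normalization between arrays, the authors' table (9 members, without Myd88), other filters, other probes, a threshold of 0.01, centring on the median gene, fits of single cell types, array means as samples, exchanged B cell labels and leaving out each channel. The authors' table with its B cell columns exchanged was added after seeing the data.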

Additional observations from a re-analysis of the deposited data

Results flagged for a closer look

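Responses to KLA that differed between cell types, by a limma contrast of the log2 changes, are listed with their values. Between EPM and BMDM at 1 h, the difference (EPM minus BMDM) was 0.47 for Myd88, -0.44 for Ticam1, 0.28 for Tirap and -0.76 for Irak2. At 12 h it was -0.33 for Ticam1, -1.19 for Irak2, 1.11 for Irak3 and 0.29 for Tbk1. Between B cells and the mean of the macrophage types at 1 h, the difference was -0.47 for Ticam1 and 0.52 for Tirap. At 12 h it was -1.61 for Myd88, -0.48 for Ticam1, -0.56 for Tirap, 0.69 for Irak1, -0.74 for Irak2, -1.87 for Irak3, -0.57 for Traf6, -0.96 for Tbk1 and -1.79 for Ikbke. The Traf6 value rests on 1 of 2 detected probes, and the B cell values rest on the scanner labels. Other probes of Irak3 and Tbk1 showed smaller gaps between EPM and BMDM at 12 h.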

How the results depend on the processing

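Of 716 recomputed macrophage changes with KLA, 663 kept their side of the threshold and, where called, their direction. A further 33 lost the call, 19 gained one and 1 reversed. A change of sign between values called in neither fit was not counted as a reversal. For B cells these were 344, 24, 10 and 18 of 396. The cause of the values below was not tested. With array means as samples, members changed numbered 0 in EPM and 0 in BMDM at 1 h, 5 in BMDM at 12 h, 0 and 0 in B cells, 0 and 0 for EPM against BMDM, and 0 at 1 h and 4 at 12 h for B cells against macrophages. The replicate block gave 8 in EPM at 1 h and 4 for B cells against macrophages at 1 h, added the single calls named in the report, and changed no other call. Leaving out each channel gave 3 to 4 in EPM at 1 h, 2 to 4 for EPM against BMDM at 1 h, 0 to 0 in B cells at 1 h and 0 to 1 at 12 h.

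In B cells at 12 h, the count was 0 with an offset of 16, no normalization between arrays, the mean of probes, the second probe, detection in all channels, a threshold of 0.01 or a single cell type, with 0 to 2 at an unadjusted p under 0.05 by limma. At 1 h it was 2 with processed signals and 0 with no normalization between arrays, the second probe, a threshold of 0.01 or a single cell type, with 2 to 4 at an unadjusted p under 0.05. The authors' table gave 5 at 1 h and 6 at 12 h, and 0 and 0 with its B cell columns exchanged (1 and 1 unadjusted). Exchanged labels gave 7 and 8 (47.4% and 49.1% of all genes), and 7 for B cells against macrophages at 1 h (49.8%). That comparison gave 7 with the authors' table, 6 with the mean of probes, 5 with the second probe and 4 when centred. In EPM at 1 h the authors' table gave 3 and a threshold of 0.01 gave 3. For EPM against BMDM at 1 h these gave 1 and 2, and at 12 h no normalization between arrays gave 8 (52.8% of all genes). For the other settings here, and for single channels left out, the share of all genes called is not given. The same holds for array means in EPM against BMDM and, at 1 h, in B cells against macrophages. Nor is a share of all genes given for any count at an unadjusted p under 0.05. Those counts describe the members alone.

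Without normalization between arrays, the following reversed: in EPM against BMDM at 12 h Ticam1 (0.09), Tirap (0.26), Irak1 (0.33) and Irak4 (0.28), and in the levels of B cells Myd88 (-0.27) and Tbk1 (-0.14) against untreated EPM, Tirap (-0.06) against EPM at 12 h and Ticam1 (-0.38) against BMDM. The median gene moved by -0.12 in BMDM at 12 h, 0.19 in EPM against BMDM at 12 h, -0.13 in B cells against untreated EPM and -0.16 against BMDM. With second probes Traf6 in EPM at 12 h (-0.06), Tirap in EPM against BMDM early controls (-0.18) and Irak4 in B cells against EPM at 12 h (0.21) reversed. With the authors' table these were, in B cells at 1 h, Irak4 (0.32), Tbk1 (-0.37) and Ikbke (0.47), at 12 h Irak2 (-0.41), Irak4 (0.20), Tbk1 (-0.37) and Ikbke (0.50), against macrophages Ikbke (0.33) at 1 h and Irak4 (0.24) at 12 h, and in levels Tbk1 (0.24) against EPM and Tirap (0.17) and Irak2 (0.46) against BMDM. With labels exchanged they were, at 1 h, Myd88 (-0.39), Irak3 (-0.26), Irak4 (0.26), Tbk1 (-0.41) and Ikbke (0.26), at 12 h Myd88 (-0.39), Irak2 (-0.44), Irak4 (0.12), Traf6 (-0.20), Tbk1 (-0.45) and Ikbke (0.40), against macrophages at 12 h Irak4 (0.18), and in levels at 12 h Myd88 (0.20), Irak3 (0.28) and Tbk1 (0.22) against EPM and Tirap (0.30) and Irak2 (0.44) against BMDM.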
